A study of Mus musculus with 6 samples.

Results

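The LRRC15 myofibroblast matrix genes are 10 genes that are read together in activated stroma: Lrrc15, Fap, Postn, Tnc, Fn1, Cthrc1, Adam12, Inhba, Fbn1 and Eln. All 10 were found by their symbols among the 15063 genes listed for each library. Lrrc15 was chosen by its RPKM values, which were higher in every library from Mapk7 conditional knockout (CKO) cells than in the wild-type (WT) libraries, so its difference between genotypes is given as a description, without a test. The other 9 were named as matrix genes of activated fibroblasts. RNA-seq was made from mesenchymal stem cells (MSCs) cultured from the marrow of mice aged 3 weeks. The CKO group held 3 libraries from cells with a conditional knockout of Mapk7, which encodes the MAP kinase ERK5, all at passage 5, and the WT group held 3 libraries, of which WT 1 and WT 3 were at passage 5 and WT 2 was at passage 7. The labels and design text do not name the promoter that drives the recombinase or the cells it acts in, and they do not say that each library comes from its own mouse.

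Activated fibroblasts, or myofibroblasts, lay down and contract a provisional matrix after injury and in tumours. TGF-β is the main signal that drives this state. It raises LRRC15, a membrane protein with leucine-rich repeats that marks the most contractile, matrix-rich tumour fibroblasts in mice and humans. In marrow cultures the same matrix genes belong to stromal cells that can form bone, cartilage and fat. Levels are in RPKM, which is reads scaled to gene length and library total, and genotype differences are CKO minus WT on the scale of log2(RPKM + 1).

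The RefSeq table held promoters for 5 of the 10 genes (Lrrc15, Postn, Tnc, Inhba and Fbn1), each spanning 250 bases before to 50 bases after a start site. The promoters of Lrrc15 and Tnc are shown because these were the genes whose CKO and WT values did not overlap. The sequences run 5′ to 3′ on the gene's own strand, build GRCm38.p6, with the Lrrc15 window at chr16:30283205-30283504 (minus strand) and the Tnc window, for the more downstream of its listed starts, at chr4:64046887-64047186 (minus strand). Capitals mark every match to the motifs searched.
Lrrc15: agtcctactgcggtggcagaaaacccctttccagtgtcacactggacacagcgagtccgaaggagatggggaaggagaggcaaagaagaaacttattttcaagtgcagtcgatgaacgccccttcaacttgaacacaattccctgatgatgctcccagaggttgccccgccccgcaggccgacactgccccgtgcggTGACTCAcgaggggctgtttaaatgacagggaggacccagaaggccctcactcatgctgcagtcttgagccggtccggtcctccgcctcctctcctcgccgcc
Tnc: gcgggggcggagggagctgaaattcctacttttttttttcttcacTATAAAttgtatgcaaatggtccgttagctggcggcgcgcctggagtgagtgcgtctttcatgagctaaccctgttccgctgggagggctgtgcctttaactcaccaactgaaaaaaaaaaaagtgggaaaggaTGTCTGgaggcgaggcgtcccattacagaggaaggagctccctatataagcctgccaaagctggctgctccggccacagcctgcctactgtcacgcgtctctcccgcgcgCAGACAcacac
In the Lrrc15 promoter the capitals are an AP-1 motif, TGANTCA, at positions -53 to -47 from the start site, and it was the only match there. AP-1 motifs were in 7.81% of all 32851 promoters of that length. In the Tnc promoter the capitals are a match to TATAAA, searched as the TATA box, at -205 to -200 (13.6% of all promoters). The others are SMAD-binding motifs, CAGACA, at -71 to -66 on the other strand and at 39 to 44 (21.0% of all promoters). The search covered both strands and also took in TEAD (GGAATG, in 14.7% of all promoters), KLF (CCACCC, 31.5%), the CArG box (1.63%) and the MEF2 box (3.19%). Inhba had a MEF2 box at -96 to -87 that overlaps a TATAAA match at -91 to -86. Fbn1 had a pair of overlapping KLF motifs. The upstream Postn start had no match, and the downstream start had a TATA box at -26 to -21. These matches describe the letters only, and no distance from the start site was asked of TATAAA. Other TATA forms, such as the tatataag nearer the Tnc start, were not searched.

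Before the genes themselves, the libraries are described by what touches them. Mapk7 was at 5.59, 3.84 and 5.45 RPKM in CKO libraries 1 to 3, against 7.12, 6.76 and 9.07 RPKM in WT libraries 1 to 3, so the transcript was below every WT library in each CKO library but still present (limma adjusted p = 0.505). Among genes downstream of MAPK7, Klf2, a transcription factor gene, was at 2.37 ± 0.942 RPKM in CKO and 48.3 ± 21.6 RPKM in WT (SD, n = 3 each, adjusted p = 0.0765), and Klf4 also lay below every WT library. The list built around MAPK7 also held other kinases of its cascade and MEF2 factors, besides Klf2 and Klf4. Of its 9 genes, 8 were tested and none passed. Each library held 17351907 to 20689481 recovered reads. WT 2, the library from passage 7, stood apart: across genes it correlated with each of the remaining libraries at 0.795 to 0.920, and its 30 cell cycle genes averaged 1.22 on the log2(RPKM + 1) scale, against 3.58 to 4.73 in the CKO libraries and 3.93 to 4.69 in the other WT libraries. The descriptions number WT 1 and WT 2 alike and tell them apart only by passage. By that label both may come from 1 animal, and the WT group, counted here as n = 3, may hold fewer than 3. With them merged, 50 genes in place of 1 passed limma's test. Yet Ddx3y, a Y-linked gene, was at 0.0357 RPKM in WT 1 and at 19.1 RPKM in WT 2. The Y-linked genes Uty, Kdm5d and Eif2s3y were at 0.0118, 0.0197 and 0.0442 RPKM in WT 1. In every other library, CKO and WT, these genes were at 1.206 RPKM or more and Ddx3y at 6.455 RPKM or more. WT 1 was thus the only library with almost no Y-linked transcripts, which is at odds with the label it shares with WT 2. WT 3 is numbered differently in its description and in its file header. Of the 18 marrow stromal markers, none was at 0 in any library, but Lepr, a defining marker of marrow stroma in mice, lay between 0.0147 and 0.311 RPKM. The 15 macrophage markers summed to 772, 443 and 3469 RPKM in CKO libraries 1 to 3, against 1109, 806 and 2355 RPKM in WT libraries 1 to 3. Most of each sum was 1 gene, Lyz2, at 2948 RPKM in CKO 3 and 1590 RPKM in WT 3. By the mean of log2(RPKM + 1) over the 15, WT 3 was the highest library, at 5.66, with CKO 3 at 5.29. In bulk RNA, fewer cells of a type cannot be told apart from less RNA per cell.

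Most of the 10 genes overlapped between genotypes. Lrrc15, which was chosen for this, and Tnc lay above every WT library in all 3 CKO libraries. Tnc was thus the only separated member whose separation was not fixed by the choice. None of the 10 lay below, and the other 8 overlapped. Among all 11085 genes past the filter, which asked for 1 RPKM or more in 3 or more libraries, 7.51% had every CKO library above every WT library, 9.18% had every CKO library below and 16.7% fell in either class. The same shares are the background for the counts of separated genes in the related lists. By limma's moderated test, adjusted by the Benjamini-Hochberg method over all these genes with a threshold of 0.05, 0.00902% of genes (1 of 11085, Galnt16) passed. None of the 8 members tested besides Lrrc15 was among them in any of the 15 alternative settings in which it was tested. Of these 8, Tnc alone had an unadjusted limma p under 0.05. Over all tested genes that level was reached by 9.74%, with 3.36% higher and 6.39% lower in CKO. These shares are the background for the unadjusted counts in the related lists. Limma-voom on recovered reads called 0 genes, with 999 at an unadjusted p under 0.05, against 1080 in limma's test. Eln did not pass the filter and was not tested. For any one gene, the smallest p that exact permutation of these 6 libraries allows is 0.1.

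**Figure D1:**
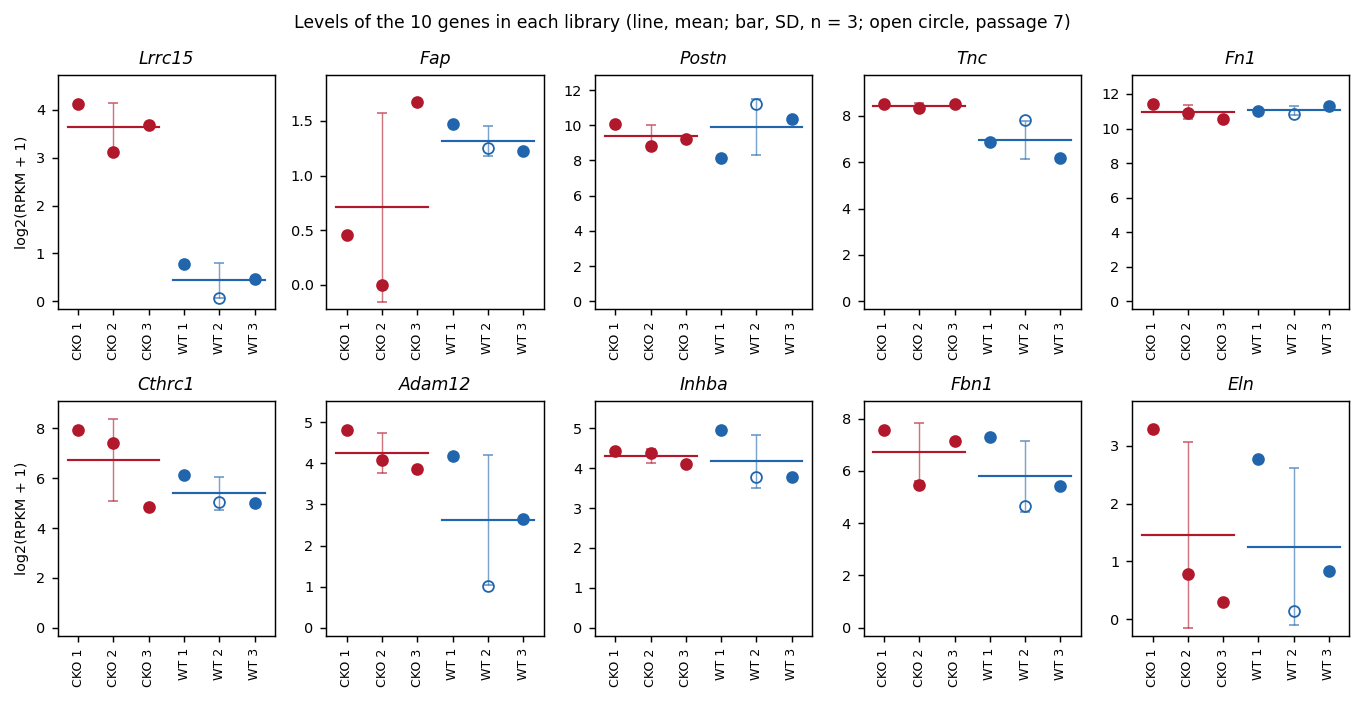
Levels of the 10 genes as log2(RPKM + 1) in CKO libraries 1 to 3 (red) and WT libraries 1 to 3 (blue), with each group's mean as a line and its SD as a bar (n = 3); the open circle is the passage 7 library. Lrrc15 and Tnc are the panels in which all CKO points lie above all WT points.

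Lrrc15 was near the bottom of the expressed range in WT cells and well inside it in CKO cells. It was at 16.4, 7.66 and 11.8 RPKM in CKO libraries 1 to 3, against 0.727, 0.0448 and 0.374 RPKM in WT libraries 1 to 3. Every CKO library was high and every WT library low, with no overlap. Behind these values stood 1672, 799 and 1132 reads in the CKO libraries and 68, 5 and 35 reads in the WT libraries, so the lowest WT value rests on very few reads. The means were 11.96 ± 4.36 RPKM in CKO and 0.382 ± 0.341 RPKM in WT (SD, n = 3 each), a ratio of 31.3. Taken library against library, the ratio of a CKO to a WT value ran from 10.54 to 365. Ranked among the listed genes of its own library, Lrrc15 lay at percentiles 76.3, 62.3 and 69.0 in the CKO libraries, against 23.8, 9.4 and 18.6 in the WT libraries. The log2 difference was 3.20 (SE 0.33), and 3.01 without WT 2.

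Acta2, the smooth muscle actin gene used to define the myofibroblast, was at 1675, 4085 and 2000 RPKM in CKO libraries 1 to 3, against 1707, 460 and 1643 RPKM in WT libraries 1 to 3. CKO 1 had the highest Lrrc15 and an Acta2 level between those of WT 1 and WT 3. Tagln, the transgelin gene, was at 1138, 3364 and 1617 RPKM in the CKO libraries, against 850, 153 and 871 RPKM in the WT libraries, without overlap. Both genes were chosen after their values were seen. Among smooth muscle and pericyte markers, 7 of 9 lay above 0 and 2 below: 5 (Myh11, Tagln, Cnn1, Des and Mcam) had every CKO library above every WT library and 1, Cspg4, had every one below. Over all tested genes, 7.51% had every CKO library above and 9.18% every one below. The median log2 difference of the 9 was 1.90, against 0.03 over all tested genes, and 1.09 without WT 2, a value added after the data were seen. Their summed level was 3306, 8447 and 3962 RPKM in CKO libraries 1 to 3, against 2772, 692 and 2764 RPKM in WT libraries 1 to 3, so WT 2 was the lowest by far and CKO 1 lay close to WT 1 and WT 3. None was at 0 in any library. None passed limma's test over all genes or with voom. An unadjusted limma p under 0.05 was reached by 5 higher and 1 lower, against 3.36% and 6.39% of all tested genes. The part of these markers in the Lrrc15 difference was not tested. These markers were also named after their values were seen.

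The other surface members are proteases, and in both the CKO and WT libraries overlapped. Fap encodes fibroblast activation protein, a serine protease of the cell surface that cuts after proline. It was at 0.371, 0 and 2.19 RPKM in CKO libraries 1 to 3, against 1.77, 1.38 and 1.34 RPKM in WT libraries 1 to 3. The CKO libraries held both the highest and the lowest Fap values, with 19, 0 and 105 reads, and the WT libraries lay close together with 83, 77 and 63 reads. A count of 0 in CKO 2 allows up to 3 reads, or 0.0574 RPKM, by counting error. No gene at 1 RPKM or more in all the other libraries was listed at 0 in CKO 2. Fap, at 0.371 RPKM in CKO 1, falls outside that check. In all, 610 genes were at 0 in CKO 2, against 330 to 747 in the other libraries. The log2 difference was -0.61 (SE 0.42, limma adjusted p = 0.656), and it ran from -1.09 without CKO 3 to -0.25 without CKO 2. With a pseudocount of 0.1 it was -1.74, and with limma-voom -2.96.

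Adam12 encodes a membrane-anchored metalloprotease of the disintegrin family that is induced in activated fibroblasts. It was at 26.9, 15.9 and 13.6 RPKM in CKO libraries 1 to 3, against 17.1, 1.01 and 5.29 RPKM in WT libraries 1 to 3. WT 1 lay above CKO 2 and CKO 3, so the groups overlapped, and the low WT mean came from WT 2 and WT 3. The log2 difference was 1.64 (SE 0.74, adjusted p = 0.544) and ran from 0.84 without WT 2 to 2.42 without WT 1. Its profile was the nearest to that of Lrrc15 among the other 9 members.

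Of the matricellular genes, whose secreted products tune how cells attach to matrix, Tnc separated the genotypes and Postn and Cthrc1 did not. Tnc encodes tenascin C, a large glycoprotein of injured and loaded tissue. It was at 359.6, 321 and 362 RPKM in CKO libraries 1 to 3, against 116, 227 and 70.9 RPKM in WT libraries 1 to 3. The CKO values were nearly equal, with the highest 1.13 times the lowest, while the WT values spread over 3.20 times. The log2 difference was 1.49 (SE 0.43, limma adjusted p = 0.33). It was 1.92 without WT 2, the highest of the WT libraries, and 1.09 to 1.92 with any 1 library left out.

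Postn encodes periostin, an integrin ligand of fibroblasts and periosteal bone cells. It was at 1077, 448 and 596 RPKM in CKO libraries 1 to 3, against 282.5, 2350 and 1288 RPKM in WT libraries 1 to 3. All CKO libraries lay between WT 1, the lowest of the 6, and WT 3, and the passage 7 library was the highest. Postn took 0.153 to 0.367% of the counted reads of a CKO library, against 0.0962, 0.8003 and 0.439% of those of WT libraries 1 to 3. The log2 difference was -0.52 (SE 0.78, adjusted p = 0.842), and 0.13 without WT 2.

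Cthrc1 encodes a small secreted protein with a short collagen triple helix that is made by activated fibroblasts. It was at 241, 172 and 27.8 RPKM in CKO libraries 1 to 3, against 69.4, 31.7 and 31.0 RPKM in WT libraries 1 to 3. CKO 1 and CKO 2 stood above all WT libraries, and CKO 3 was the lowest of the 6. Between genotypes the log2 difference was 1.34 (SE 0.80, adjusted p = 0.611) and ran from 0.75 without CKO 1 to 2.29 without CKO 3.

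**Figure D2:**
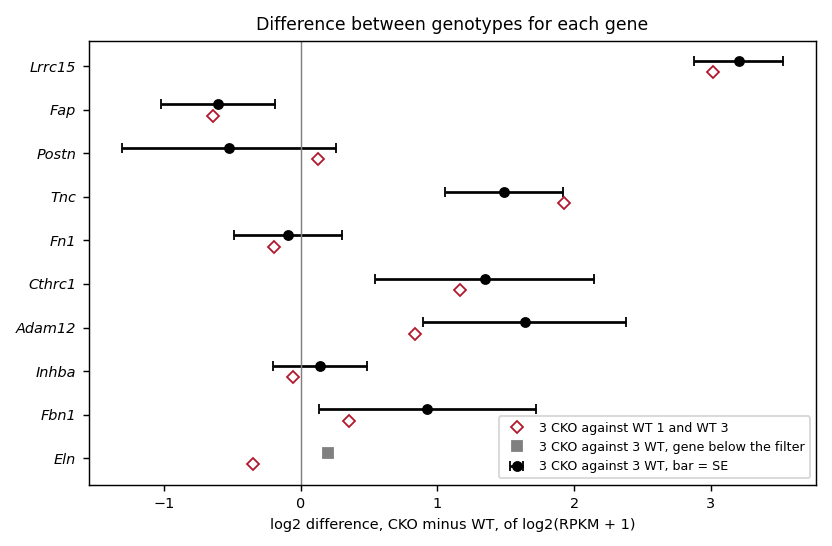
Log2 difference between genotypes (CKO minus WT) for each gene over all 6 libraries (black, bar = SE; grey square, Eln, which was below the filter) and without the passage 7 library (open diamonds). Lrrc15 is at 3.20 and Tnc at 1.49; the differences of Postn and Inhba lie on the other side of 0 without that library, at 0.13 and -0.05, as does that of Eln, at -0.35.

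The structural scaffold genes all overlapped between genotypes. Fn1 encodes fibronectin, on which the collagens and fibrillin are assembled. It was at 2722, 1898 and 1521 RPKM in CKO libraries 1 to 3, against 2028, 1833 and 2567 RPKM in WT libraries 1 to 3. Its groups overlapped fully, and it was the steadiest of the 10, with the highest library 1.79 times the lowest. It took 1.28 to 2.29% of the counted reads of a CKO library and 1.54 to 2.16% of those of a WT library. Its log2 difference was -0.09 (SE 0.39, limma adjusted p = 0.95). One gene-level value does not separate the spliced forms of fibronectin or tenascin C.

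Fbn1 encodes fibrillin-1, the rod of the microfibrils that hold latent TGF-β. It was at 186, 42.5 and 142 RPKM in CKO libraries 1 to 3, against 155, 24.1 and 42.3 RPKM in WT libraries 1 to 3. CKO 1, WT 1 and CKO 3 were high, and CKO 2 was level with WT 3. Its log2 difference was 0.93 (SE 0.79, adjusted p = 0.713), and it ran from 0.35 without WT 2 to 1.67 without WT 1.

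Eln encodes tropoelastin, the precursor of elastin, which is laid onto those microfibrils. It was at 8.74, 0.715 and 0.227 RPKM in CKO libraries 1 to 3, against 5.84, 0.110 and 0.783 RPKM in WT libraries 1 to 3. CKO 1 and WT 1 stood far above the other 4 libraries, which all lay under 1 RPKM, with 658 and 403 reads against 9 to 55 in those 4. The highest library was 79.9 times the lowest. The log2 difference of 0.20 was not tested.

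Inhba encodes the subunit of activin A, a TGF-β family ligand, and it is the signalling member of the group. It was at 20.8, 19.9 and 16.2 RPKM in CKO libraries 1 to 3, against 29.9, 12.8 and 12.8 RPKM in WT libraries 1 to 3. The CKO libraries lay between WT 1 and the other WT libraries. This gave a log2 difference of 0.14 (SE 0.34, limma adjusted p = 0.907), and -0.05 without WT 2.

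For 6 of the 10 genes the same library was the highest within each genotype. These 6 (Lrrc15, Cthrc1, Adam12, Inhba, Fbn1 and Eln) were highest both in CKO 1 among the CKO libraries and in WT 1 among the WT libraries, as were 17.9% of all tested genes. Over all 10 genes, WT 2 was the lowest of the 6 libraries for 4 (Lrrc15, Adam12, Fbn1 and Eln), close to the share of 36.8% over all tested genes. CKO 1 and WT 1 were also the pair of libraries with the highest correlation across genes, at 0.972. Likeness was measured as the root-mean-square distance between mean-centred log2(RPKM + 1) profiles over the 6 libraries. By that measure Fn1 and Inhba were the closest members, at 0.49, followed by Adam12 and Fbn1, at 0.72. Postn was the farthest from Lrrc15, at 2.17, with Adam12 at 1.08 and Tnc at 1.09.

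**Figure D3:**
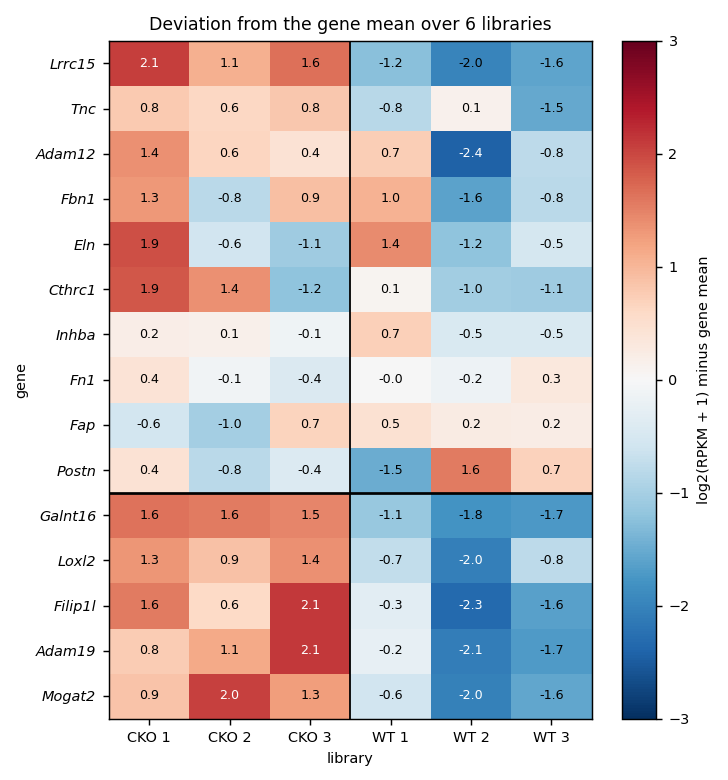
Deviation of each gene from its own mean over the 6 libraries, in log2(RPKM + 1), for the 10 genes (above the line) and for the 5 tested genes nearest to Lrrc15 (below it), with CKO libraries on the left. Eln, Fbn1 and Adam12 are above their mean in both CKO 1 and WT 1, and Postn is highest in WT 2.

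Across all tested genes, the 5 profiles nearest to Lrrc15 belonged to genes outside the 10 members, though Loxl2 and Adam19 are in the related lists. Of 11084 genes ranked by distance, the 5 nearest were Galnt16, an O-glycosylation enzyme gene (distance 0.30), Loxl2, a collagen crosslinking enzyme gene (0.51), Filip1l (0.54), Adam19, a metalloprotease relative of Adam12 (0.70), and Mogat2, which encodes an enzyme that builds diacylglycerol (0.71). Adam12 ranked 78 and Tnc 93, while Fn1 ranked 6391 and Postn 10484. Filip1l was at 58.6, 29.6 and 88.1 RPKM in CKO libraries 1 to 3, against 15.4, 3.05 and 5.54 RPKM in WT libraries 1 to 3. Adam19 was at 20.8, 27.1 and 54.5 RPKM in the CKO libraries, against 9.79, 2.05 and 2.95 RPKM in the WT libraries. In both genes each CKO library was above each WT library. Since the ranking used the values of all 6 libraries and Lrrc15 was chosen for its difference, the genotype difference of these genes is part of how they were found.

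The wider set of activated fibroblast genes split in both directions. Of 38 such genes, 37 were tested, and 7 had every CKO library above every WT library while 12 had every one below, with a median log2 difference of -0.29. The lists share genes: Tagln and Cnn1, among the 7, were also counted as smooth muscle and pericyte markers. Lox, among the 12, is also counted as an elastic fibre gene. The shares over all tested genes were 7.51% above and 9.18% below. None passed limma's test over all genes or with voom. An unadjusted limma p under 0.05 was reached by 5 higher and 10 lower, against 3.36% and 6.39% of all tested genes. Comp, whose product binds collagen in cartilage, was at 4.44, 3.24 and 0.167 RPKM in CKO libraries 1 to 3, against 152, 1707 and 338 RPKM in WT libraries 1 to 3 (log2 difference -7.22, adjusted p = 0.117). Col11a1, a fibrillar collagen gene that accompanies LRRC15 in human tumour stroma, was at 71.8, 32.6 and 13.3 RPKM in the CKO libraries, against 160, 522 and 187.5 RPKM in the WT libraries (-2.94, adjusted p = 0.277). Cilp, another cartilage matrix gene, was at 0.354 ± 0.434 RPKM in CKO and 16.5 ± 13.1 RPKM in WT (SD, n = 3 each). In Comp, Col11a1 and Cilp the groups did not overlap, and the direction was opposite to that of Lrrc15. Cilp reached 1 RPKM in the WT libraries alone, so it passed the filter only through the group where it was high. Its separation is therefore given as a description, though it is counted among the 12 and among the 10. Col1a1, the main collagen gene, was at 1983 ± 922 RPKM in CKO and 2259 ± 327 RPKM in WT, with overlap.

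TGF-β pathway genes were mixed as well. Of 20 ligands, receptors and targets tested, 12 lay above and 8 below 0 (median 0.13). Tgfbi was 1 of 2 genes with every CKO library above every WT library, and Tgfb1 and Nox4 had every one below. The shares over all tested genes were 7.51% and 9.18%. None of the 20 passed limma's test over all genes or with voom. An unadjusted limma p under 0.05 was reached by 1 higher and 2 lower, against 3.36% and 6.39% of all tested genes. Tgfbi, a relative of periostin induced by TGF-β, was at 151, 62.2 and 39.5 RPKM in CKO libraries 1 to 3, against 33.6, 1.495 and 24.1 RPKM in WT libraries 1 to 3 (log2 difference 2.496, adjusted p = 0.497). Without WT 2 its difference was 1.31. The ligand gene Tgfb1 was at 15.5, 15.7 and 16.8 RPKM in the CKO libraries, against 19.8, 26.0 and 32.9 RPKM in the WT libraries. Smad6, an inhibitory SMAD gene, was at 7.48 ± 5.05 RPKM in CKO and 23.7 ± 11.3 RPKM in WT (SD, n = 3 each), with overlap. Nox4 was named after its values were seen.

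Around Inhba, the partner genes of the activin pathway had a median log2 difference of 0.04 over 12 tested genes, with 6 above and 6 below 0. Inhbb, the gene for the other common β subunit, was at 10.7, 10.8 and 24.3 RPKM in CKO libraries 1 to 3, against 2.37, 6.35 and 1.76 RPKM in WT libraries 1 to 3. All CKO values were higher (log2 difference 1.89, SE 0.46, limma adjusted p = 0.278). Fst, which encodes the activin trap follistatin, was at 25.7, 28.3 and 4.10 RPKM in the CKO libraries, against 32.6, 54.0 and 37.6 RPKM in the WT libraries. All CKO values were lower (-1.39, adjusted p = 0.558), as were those of Bambi, a decoy receptor gene. Over all tested genes, 7.51% had every CKO library above every WT library and 9.18% had every one below. None of the 12 passed limma's test or voom. An unadjusted limma p under 0.05 was reached by 1 higher and 1 lower, against 3.36% and 6.39% of all tested genes.

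Partners of Fbn1 and Eln in elastic fibres also went both ways, with 3 of 22 tested genes higher in every CKO library, 4 lower and a median of -0.35. Such separation was seen in 7.51% (higher) and 9.18% (lower) of all tested genes. The crosslinking enzyme gene Loxl2 was at 134, 99.2 and 141 RPKM in CKO libraries 1 to 3, against 31.3, 12.2 and 30.5 RPKM in WT libraries 1 to 3 (adjusted p = 0.162), and Loxl1 was at 158, 172 and 126 RPKM, against 85.8, 49.6 and 57.6 RPKM (adjusted p = 0.277). Their relative Loxl4 went the other way, at 6.34, 7.52 and 4.33 RPKM in the CKO libraries, against 21.0, 24.5 and 13.2 RPKM in the WT libraries (adjusted p = 0.258). None of the 22 passed limma's test or voom. An unadjusted limma p under 0.05 was reached by 2 higher and 4 lower, against 3.36% and 6.39% of all tested genes.

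Receptors that bind fibronectin, tenascin C and periostin had a median difference of 0.06 over 14 tested genes. Itga5, the fibronectin-specific integrin subunit gene, was at 160, 246 and 197 RPKM in CKO libraries 1 to 3, against 104, 19.0 and 58.6 RPKM in WT libraries 1 to 3, while Fn1 itself overlapped. The groups did not overlap for Itga5 (log2 difference 1.99, SE 0.58, adjusted p = 0.334), for its partner Itgb1, named after its values were seen, or for Cd44, all higher in CKO, and Sdc2, a syndecan gene, was lower in each CKO library. Over all tested genes, 7.51% had every CKO library above every WT library and 9.18% had every one below. None of the 14 passed limma's test or voom. An unadjusted limma p under 0.05 was reached by 2, both higher, against 3.36% of all tested genes higher at that level.

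Among 15 tested relatives of the members by sequence or family, 3 (Tgfbi, Inhbb and Adam19) had every CKO library above every WT library and none had every one below. Over all tested genes these shares were 7.51% and 9.18%, and 16.7% for either. Tgfbi and Inhbb were also counted in lists above. The same 3 had an unadjusted limma p under 0.05, a level at which 3.36% of all tested genes were higher. None passed after adjustment or with voom, and the median difference was 0.45. Reads of such relatives could be shared with the members to an extent that the sources used here do not state. Genes of steady-state and inflammatory fibroblasts had a median of -0.10 over 20 tested genes, with Ptgs2, chosen after its values were seen, higher in every CKO library and 4 genes lower. Of the 4, Igfbp6, an IGF-binding protein gene, was at 12.7, 42.3 and 23.8 RPKM in CKO libraries 1 to 3, against 65.3, 201.5 and 165 RPKM in WT libraries 1 to 3 (adjusted p = 0.277), and Ly6c1, a surface marker of resting mouse fibroblasts, was at 6.60 ± 2.71 RPKM in CKO and 21.3 ± 8.44 RPKM in WT (SD, n = 3 each). The others were Ly6a and Cxcl12, named after their values were seen. Il11, a cytokine gene of activated fibroblasts, was at 8.47, 9.33 and 1.93 RPKM in CKO, against 2.25, 0.494 and 0.421 RPKM in WT, with overlap. The all-gene shares of 7.51% above and 9.18% below apply to these 20 genes too. None of the 20 passed limma's test or voom. An unadjusted limma p under 0.05 was reached by 3 higher and 4 lower, against 3.36% and 6.39% of all tested genes.

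**Figure D4:**
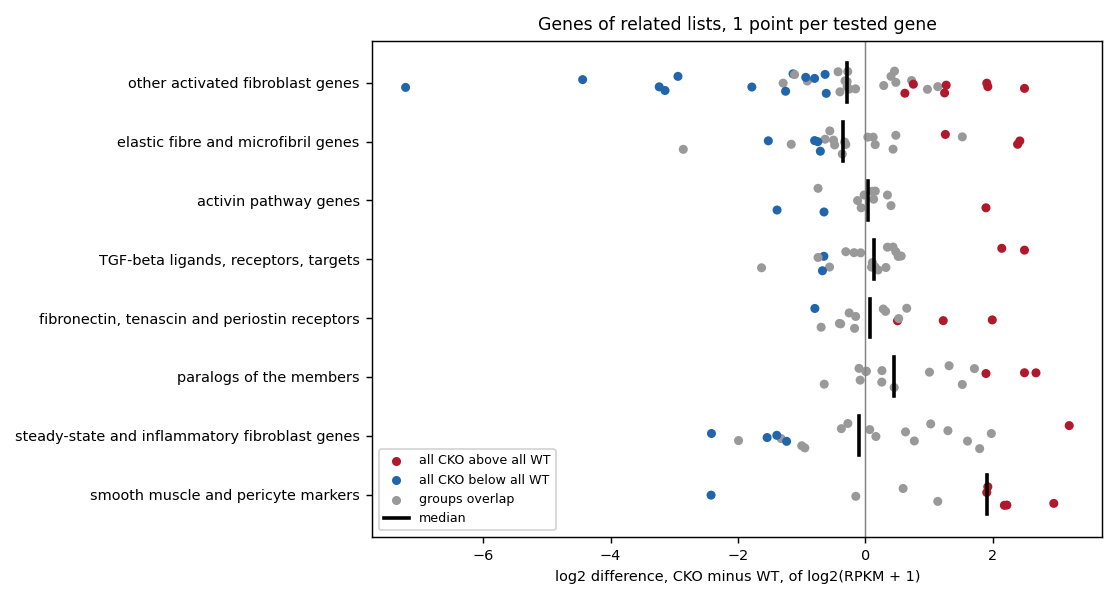
Log2 difference between genotypes (CKO minus WT) for each tested gene of 8 related lists, coloured by whether all CKO libraries lie above (red) or below (blue) all WT libraries or the groups overlap (grey), with the list median as a black bar. The medians lie between -0.35 and 0.45 except for smooth muscle and pericyte markers, at 1.90, or 1.09 without WT 2.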

How the data were processed

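RNA-seq libraries were made from cultured marrow MSCs with a stranded mRNA kit, per the labels' protocols, and mm9 is the genome build in the submitters' processing notes. Which aligner, counter and annotation were used, and whether counting used strand, is not given in the sources used here. The authors deposited RPKM values, reads scaled to gene length and library total, with no further normalization apparent. The file headers say only expression, so the unit rests on arithmetic: given whole-number library totals and gene lengths, 15027 of 15063 genes (99.76%) gave whole reads within 0.01 read, or a relative error of 1e-07, and 0 of 500 shuffled genes did. In simulation 99.1% of 800 genes were recovered exactly. Groups were taken from the sample titles, and a p-value speaks only of the spread among these 6 libraries, which may be partly technical.

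The test was limma 3.58.1 in R 4.3.3 on log2(RPKM + 1) with a genotype term alone, trended and robust moderation, two-sided, for genes that reached 1 RPKM in 3 or more libraries. It was tested on simulated data. This scale understates the change of low genes. The members, lists and tests were chosen with earlier results of these data known. Named genes are the members, Mapk7, Col1a1, up to 3 genes per related list with the lowest p, any list gene past the threshold, and the 5 nearest to Lrrc15. Lepr, Ddx3y and the other genes outside this rule were chosen after their values were seen. Alternatives were the pseudocount, the filter, the scaling, the moderation, leaving out each library and a replicate block. Further ones were limma-voom on recovered reads and the merging of WT 1 and WT 2. The descriptions number these libraries alike, but their Y-linked transcripts differ. A combined table with identical values was left out, and 1 gene of a related list is not reported here by name. Promoters come from RefSeq, GRCm38.p6.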

Additional observations from a re-analysis of the deposited data

How the results depend on the processing

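In limma's test 1 gene passed the threshold, which became 0 with a pseudocount of 0.1, without a filter and with limma-voom on recovered reads, 2 after median centring or quantile normalization, 4 with the filter at RPKM 5 and 50 (8 higher, 42 lower) with WT 1 and WT 2 merged. It ranged from 0 to 24 with 1 library left out: 0 without WT 2, WT 3 or CKO 3, 17 without CKO 1 and 24 without WT 1. With the replicate block it was 0. In the settings with a count of 0, 642 (without WT 2) to 1399 (no filter) genes had an unadjusted limma p under 0.05, against 1080 in the reported test. Same-numbered libraries did not all deviate together (correlations of 0.20, 0.01 and -0.02 across genes), and CKO 2 correlated best with WT 3 (0.21), so the numbers were not taken to pair the libraries.

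The log2 difference of Lrrc15 was 4.90 with a pseudocount of 0.1 and 5.67 with limma-voom, and 3.01 to 3.38 without any 1 WT library. Without any 1 CKO library it was below the filter. With 1 library left out, the difference ran from -0.32 to 0.10 for Fn1, from -0.06 to 0.53 for Inhba and from -1.40 to 0.13 for Postn, so these changed sign. Tnc (1.09 to 1.92), Adam12, Cthrc1, Fbn1 and Fap kept theirs in every setting in which they were tested. Of the related lists, 1 gene, Klf2, passed with the filter at RPKM 5, without WT 1 and with WT 1 and WT 2 merged. Comp and Cilp (2 genes) and Loxl2 (1 gene) passed with the merge, and Adam19 (1 gene, range 0 to 1) without WT 1. The median of the steady-state and inflammatory genes was -0.61 with the filter at RPKM 5, against -0.10. The cause of these shifts was not tested. Read counts were low for Lrrc15 in the WT libraries (5 to 68 reads) and for Fap throughout (0 to 105 reads). They were also low for Eln outside CKO 1 and WT 1 (9 to 55 reads).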
